A study of Mus musculus with 9 samples.

Results

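The genes of xenobiotic metabolism described here are 43 enzymes, transporters and receptors that handle drugs, dietary chemicals and other foreign compounds, followed across 9 expression arrays of mouse distal small intestine. They were chosen by gene symbol: a probe set counted for a gene when the platform annotation gave it that symbol and no other. Of the 43 listed genes, 40 had a probe set of their own, 57 probe sets in all among 45101 on the array, and all 40 genes had at least 1 probe set bright enough to be tested. Por, Ces2c and Gsta1 had no such probe set and are not analysed here. Before sampling, all of the mice had carried Bacteroides thetaiotaomicron, a common gut bacterium, for 10 days. The 3 groups of 3 arrays were BP, which the labels give as tissue of Rag1 mice under the added name BP without spelling it out; Rag1, mice named for the gene whose product joins the segments of antibody and T cell receptor genes; and B6, the wild type. The series title sets the question of the effect of IgA, the main antibody of mucosal surfaces, and the labels give no age, sex, exact allele, dose or batch. The intestine was cut into 16 equal parts, of which parts 10, 11, 12 and 14 were combined for each RNA sample, and nothing says whether an array stands for 1 mouse, so p-values measure only the spread between these samples.

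Foreign compounds are handled in stages. Monooxygenases, reductases and esterases first expose or add a reactive group, transferases then attach glutathione, glucuronic acid or sulfate, and efflux pumps carry the products out of the cell. The nuclear receptors PXR and CAR sense many of these compounds and induce genes of each stage. In the small intestine the system works mainly in the absorptive enterocytes, the layer that meets the diet and the products of gut bacteria.

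The tissue named by the labels was checked against marker genes. Fabp6, the ileal bile acid binding protein, read 8083 to 10140 normalised intensity units on the BP arrays, 2352 to 10460 on the Rag1 arrays and, on the B6 arrays, 4895 to 6790, while Slc10a2, the ileal bile acid carrier, was dim on every array, at 9.72 to 90.7. Normalised intensity means the deposited signal after the 9 arrays were brought to a common distribution. Among the 11 enterocyte markers measured, 0 passed the limma test in any comparison, with 2, 0 and 1 at an unadjusted p under 0.05 for BP against Rag1, Rag1 against B6 and BP against B6 (19.1%, 5.8% and 13.9% of genes). All BP arrays lay below all Rag1 arrays for 4 of the 11 and above them for 0 (13.1% and 10% of genes). Against B6 they lay below for 3 and above for 0 (11.8% and 7.34% of genes). Differences of BP from Rag1 and from B6 were positive for 3 and 1 of the 11 (48.5% and 45.9% of genes). The summed level of the enterocyte markers was 57580 to 58790 on the BP arrays, 56690 to 67650 on the Rag1 arrays and, on the B6 arrays, 62990 to 66990. The Rag1 gene itself was too dim to check the labels, at 2.05 to 23.6 on the BP arrays, 2.16 to 2.90 on the Rag1 arrays and, on the B6 arrays, 3.71 to 20.2. Summed markers of B and plasma cells lay at 188.7 to 230.8 on the BP arrays, 175.2 to 191.1 on the Rag1 arrays and, on the B6 arrays, 3199 to 9372. Of the 6 measured, Igha and Jchain passed as lower in each of BP and Rag1 than in B6 tissue (0.545% and 0.317% of genes). Of the 5 tested T cell markers, 3 passed as lower in BP than in B6 tissue (0.545% of genes). In Rag1 against B6 tissue 4 passed as lower (0.317% of genes). The 7 T cell markers measured summed to 190.8 to 252.3 on the BP arrays, 182.6 to 226.6 on the Rag1 arrays and, on the B6 arrays, 865.6 to 934.4. Of 6 smooth muscle markers tested, 2 passed as lower in BP than in Rag1 tissue (2.17% of genes), the contractile genes Myh11 and Des. A positive difference was found for 2 of the 6. All BP arrays lay above all Rag1 arrays for 1 and below them for 2 (10% and 13.1% of genes). Myh11 read 747.3, 1002 and 551 on the BP arrays, 2235, 2170 and 2048 on the Rag1 arrays and, on the B6 arrays, 1355, 2109 and 1132. Its difference between BP and Rag1 was -1.51 ± 0.25 (limma adjusted p = 0.0134). Des differed by -0.69 ± 0.17 (adjusted p = 0.0485). The summed muscle markers were 9333, 12080 and 9155 on the BP arrays, 11810, 10040 and 11770 on the Rag1 arrays and, on the B6 arrays, 11020, 10320 and 9452. Among the BP arrays the sum was high on replicate 2 alone. The part of these other cell types in the differences given here was not tested. Because whole tissue was measured, fewer cells of a type and less RNA per cell cannot be told apart.

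Several libraries stood apart in ways that run alongside the groups. The actin 3' to 5' signal ratio, a measure of RNA integrity that goes up as RNA degrades, was 14.2, 2.43 and 20.2 on BP replicates 1, 2 and 3, against 1.53 to 1.77 on the Rag1 arrays and, on the B6 arrays, 1.76 to 4.17. Xist, expressed from the inactive X chromosome, read 41.6, 518.5 and 1948 on the BP arrays, against 6.69 to 22.6 on the Rag1 arrays and, on the B6 arrays, 1085 to 1510, so sex cannot be told apart from group between Rag1 and B6 and runs partly with group between BP and Rag1. Rag1 replicate 3 had a summed level of 7990 over 8 proximal small intestine markers, against 15630 and 16690 on the other Rag1 arrays, and 28090 over 9 ileal markers, against 19610 and 14700. The part of RNA quality, sex and position along the gut in the differences below was not tested. Values without a library, or with the actin ratio as a covariate, describe those settings only. The ratio varies most within BP, so this covariate largely sets BP replicate 2 apart from BP replicates 1 and 3. It cannot tell RNA quality apart from other traits of that array.

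Most of the xenobiotic genes had a higher mean in BP than in Rag1 tissue, and most had a lower mean in Rag1 than in B6 tissue. In BP against Rag1 tissue, 10 of 40 members passed the test as higher, where 1.1% of 13570 genes did, and 2 as lower, where 2.17% of genes did (limma, Benjamini-Hochberg adjusted p under 0.05 over all 27022 tested probe sets). Members called either way came to 30%, where the share of all genes was 3.26%. The members were chosen with earlier results of these data known, so the counts and shares in this paragraph carry no test. The 10 higher members were Akr1c19, Akr1c13, Cyp3a11, Adh1, Ces2a, Akr1c12, Ces2g, Gstt1, Abcc2 and Cyp2d26, and the 2 lower ones were Gstt3 and Mgst3. Called or not, 34 of 40 members had a positive difference (48.5% of genes), 22 had an unadjusted p under 0.05 (19.1% of genes), and 19 had all BP arrays above all Rag1 arrays and 3 all below (10% and 13.1% of genes). The median over members was 0.53 on the log2 scale, where that over all genes was -0.02. In Rag1 against B6 tissue 1 member passed, Ces2g, which was lower (2.5% of members, where 0.317% of genes were called lower, 0.0737% higher and 0.391% either way). Positive differences were 6 of 40 (46.9% of genes), 20 members had an unadjusted p under 0.05 (5.8% of genes), 2 had all Rag1 arrays above all B6 arrays and 19 all below (8.43% and 10.5% of genes), with a median of -0.59 (-0.02 over all genes). In BP against B6 tissue 1 member passed, Mgst3, also lower (0.545% of genes were called lower, 0.0368% higher and 0.582% either way). Positive differences were 22 of 40 (45.9% of genes), 6 members had an unadjusted p under 0.05 (13.9% of genes), 4 had all BP arrays above all B6 arrays and 2 all below (7.34% and 11.8% of genes), and the median was 0.06 (-0.04 over all genes). Any pair of these comparisons shares the arrays of 1 group, BP, Rag1 or B6, so their signs are not independent.

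The count of members called in BP against Rag1 tissue depended on single arrays. It was 0 without Rag1 replicate 1 and 0 without Rag1 replicate 2 (limma; 22 and 23 members at an unadjusted p under 0.05), 2 without BP replicate 3, 5 without Rag1 replicate 3 or B6 replicate 1, 4 without B6 replicate 3 and 20 without BP replicate 2. With BP and Rag1 arrays alone in the fit, 3 members passed, Akr1c13 and Ces2a as higher and Gstt3 as lower. With Rag1 and B6 arrays alone, 6 members passed in Rag1 against B6 tissue, where 1 did in the common fit. The median SD of tested probe sets within a group was 0.437 in BP, 0.211 in Rag1 and 0.227 in B6 (log2 scale). The common fit gives all groups 1 spread, which for a typical probe set lies below that of BP and above those of Rag1 and B6. With the actin ratio as a covariate 20 passed, 18 of them as higher, and 6 passed on the values as deposited. Calls over the whole array moved with these settings too. Of 27022 tested probe sets, 1027 were called in the main fit, 18 without Rag1 replicate 1 and 223 without BP replicate 3. The number was 5303 without BP replicate 2, 4191 with the actin ratio, 183 with the 2 groups alone and 771 on the values as deposited. None of the 12 called differences changed sign in 21 alternative settings. The called direction of Sult1b1, a member outside the 12, turned with the setting, as given with its values. The median over members in BP against B6 tissue was -0.18 with centring on each array's median, where the median over all genes was -0.15.

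**Figure D1:**
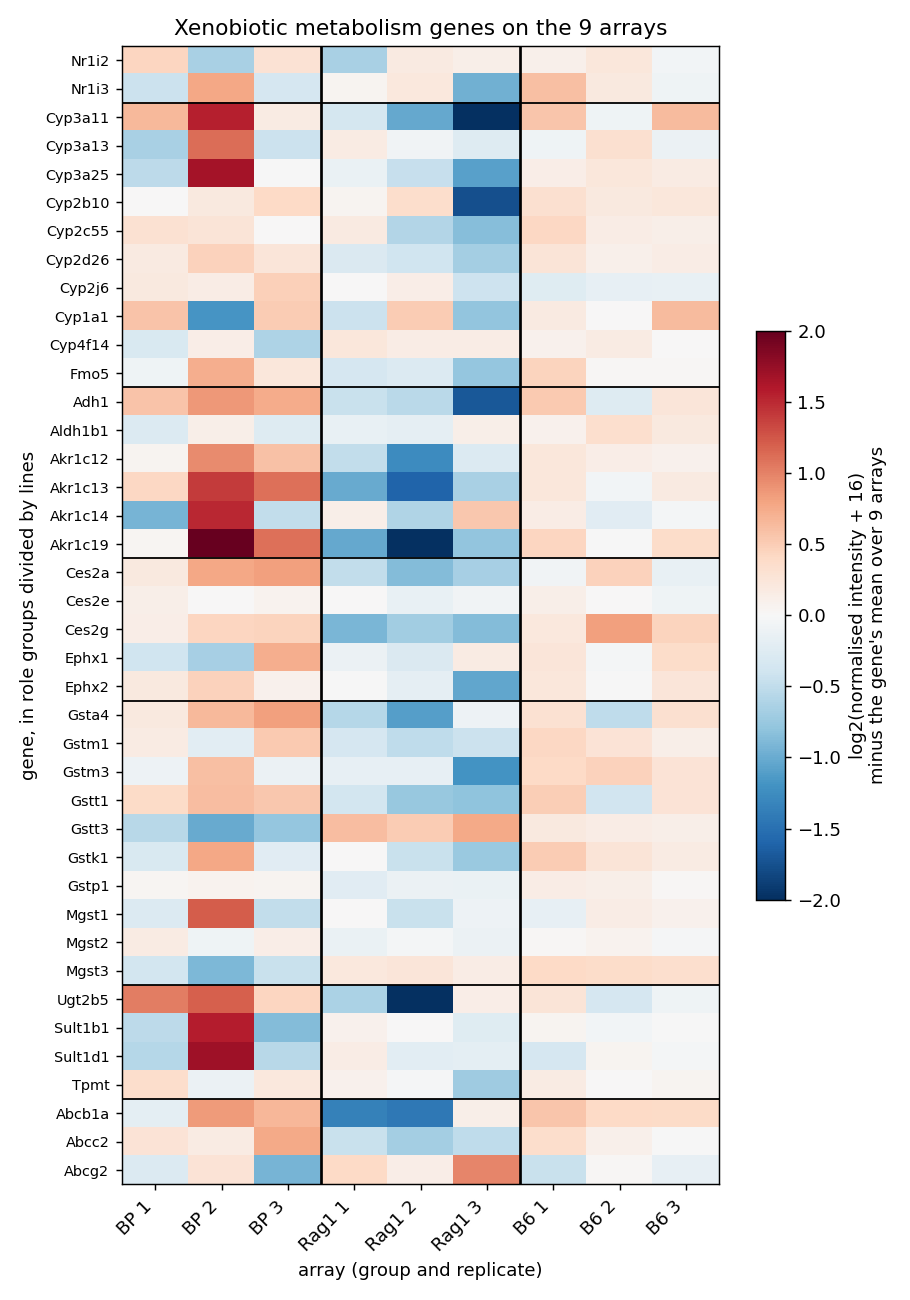
Each row is 1 of 40 xenobiotic genes and each column 1 array, in the order BP, Rag1, B6; the colour gives the log2 difference of the normalised signal from the gene's mean over the 9 arrays, red above and blue below, with lines between role groups. A Rag1 array is the lowest of the 9 in 27 rows (24.1% of all genes), and BP replicate 2 is the highest in 20 (19% of all genes).

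Array by array, the median member lay 0.44, 1.06 and 0.53 above its Rag1 mean on BP replicates 1, 2 and 3, at 0.13, -0.04 and -0.04 on the Rag1 arrays, and 0.66, 0.41 and 0.53 above it on the B6 arrays (log2 scale). The Rag1 arrays are measured against their own mean here, so they lie near it by construction. All 3 BP arrays were above all 3 Rag1 arrays in this median. By the count of members above their Rag1 mean, BP and Rag1 overlapped. That count was 28, 33 and 29 of 40 on BP replicates 1, 2 and 3, against 30, 18 and 17 on the Rag1 arrays. On the B6 arrays it was 34, 34 and 33. A BP array gave the highest reading of the 9 for 31 of 40 members (53.8% of all genes), a Rag1 array for 3 (24.3%) and a B6 array for 6 (21.9%). The lowest reading came from a BP array for 13 members (58.1% of genes), from a Rag1 array for 27 (24.1%) and from a B6 array for 0 (17.8%). BP replicate 2 alone held the highest reading of 20 members (19% of genes), and Rag1 replicate 3 alone the lowest of 14 (6.46% of genes).

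**Figure D2:**
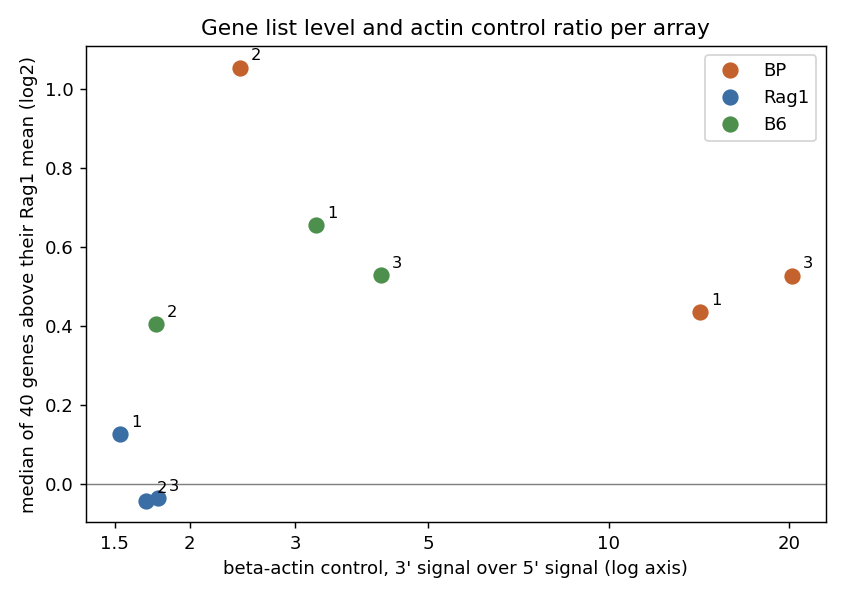
For each array, the median log2 difference of the 40 members from their Rag1 means is plotted against the actin 3' to 5' ratio on a log axis, with the replicate number beside each point. The 3 BP arrays lie at 0.44 to 1.06 over ratios of 2.43 to 20.2, and the Rag1 arrays lie at -0.04 to 0.13.

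The receptors themselves did not pass in any of the 3 comparisons. Nr1i2, which encodes PXR, read 624, 287 and 564 on the BP arrays, against 289.5, 526 and 503 on the Rag1 arrays and 492, 541 and 445 on the B6 arrays. The groups overlapped, and the difference of BP from Rag1 was 0.13 ± 0.30 on the log2 scale (± SE, here and for the differences that follow; 95% interval -0.53 to 0.79; limma adjusted p = 0.868). A dimmer probe set of Nr1i2 leaned the other way, with -0.37 ± 0.24 (adjusted p = 0.426). Nr1i3, which encodes CAR, read 108, 271 and 117 on the BP arrays, against 159, 179 and 70.2 on the Rag1 arrays and 238, 177 and 142 on the B6 arrays, again with overlap, and differed by 0.23 ± 0.39 between BP and Rag1 (adjusted p = 0.807).

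Among the monooxygenases, which oxidise their substrates, 2 of 10 passed as higher in BP than in Rag1 tissue and 0 as lower, with a median difference of 0.63 over the 10. Cyp3a11, the main drug-oxidising member of its subfamily in mouse and a classic PXR target, read 1379, 2596 and 977 on the BP arrays, against 681, 420.1 and 188 on the Rag1 arrays and 1286, 819.8 and 1359 on the B6 arrays. All BP arrays were above all Rag1 arrays, and BP and B6 overlapped. The difference was 1.96 ± 0.43 between BP and Rag1, 3.88-fold (limma adjusted p = 0.0344), and -1.53 ± 0.43 between Rag1 and B6, which did not pass (adjusted p = 0.393). Cyp2d26, of the family that in humans oxidises many drugs, read 1899, 2312 and 1986 on the BP arrays, against 1380, 1274 and 1041 on the Rag1 arrays and 2008, 1798 and 1866 on the B6 arrays. Its Rag1 arrays lay below every array of the other groups, with a difference of 0.74 ± 0.15 between BP and Rag1 (adjusted p = 0.027) and -0.62 ± 0.15 between Rag1 and B6 (adjusted p = 0.252).

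The flavin monooxygenase Fmo5 gave different answers on its 3 probe sets. The brightest read 1319, 2332 and 1638 on the BP arrays, against 1107, 1150 and 814 on the Rag1 arrays and 1901, 1422 and 1420 on the B6 arrays, a difference of 0.75 ± 0.23 between BP and Rag1 that did not pass (adjusted p = 0.089). The dimmest read 209.5, 223 and 280.4 on the BP arrays, against 115, 134 and 65.6 on the Rag1 arrays and 246, 211 and 224 on the B6 arrays, and passed with 1.11 ± 0.25 (adjusted p = 0.0382). The middle one showed -0.11 ± 0.31, so the probe sets of this gene disagree. Cyp4f14, of a subfamily that hydroxylates fatty acids and leukotrienes, was the monooxygenase with a negative difference, at 2376, 3221 and 1901 on the BP arrays, against 3448, 3259 and 3249 on the Rag1 arrays and 3119, 3271 and 2934 on the B6 arrays. Its BP arrays lay below its Rag1 arrays, yet the difference of -0.44 ± 0.17 did not pass (adjusted p = 0.176).

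Of the 6 remaining monooxygenases, 5 overlapped between BP and Rag1. Cyp3a13, another member of the Cyp3a subfamily, read 892, 3069 and 1047 on the BP arrays, against 1585, 1344 and 1183 on the Rag1 arrays and 1336, 1778 and 1308 on the B6 arrays, high on BP replicate 2 alone. Against B6 tissue it passed as lower without BP replicate 2 (-0.59 ± 0.16, limma adjusted p = 0.0348). It passed as higher with the actin ratio as a covariate (0.85 ± 0.19, adjusted p = 0.0117) or with BP replicate 2 as the only BP array (1.07 ± 0.21, adjusted p = 0.00413). Cyp3a25 of the same subfamily ranged over 451 to 2103 on the BP arrays, 299 to 592 on the Rag1 arrays and, on the B6 arrays, 715 to 769. Cyp2b10, a classic CAR target, read 1718, 1962 and 2271 on the BP arrays, against 1776, 2198 and 492 on the Rag1 arrays and 2148, 1951 and 2008 on the B6 arrays, with a low value on Rag1 replicate 3 alone. Cyp2c55 ranged over 224 to 279.5 on the BP arrays, 116 to 256 on the Rag1 arrays and, on the B6 arrays, 244 to 303. Cyp2j6, of a subfamily that makes epoxides of fatty acids, ranged over 1166 to 1457 on the BP arrays, 778 to 1144 on the Rag1 arrays and, on the B6 arrays, 882 to 943, with all BP arrays above all Rag1 arrays. Cyp1a1, the classic target of the aryl hydrocarbon receptor, ranged over 59.0 to 236 on the BP arrays, 82.4 to 228 on the Rag1 arrays and, on the B6 arrays, 155 to 248. The differences of these 6 genes between BP and Rag1 were 0.06, 0.94, 0.65, 0.61, 0.37 and 0.20 in the order given, and 0 of them passed (limma; 1 had an unadjusted p under 0.05).

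Dehydrogenases and ketone reductases had the highest median difference of the role groups, 1.41 between BP and Rag1, with 4 of 6 called higher. Akr1c19, an aldo-keto reductase, read 441, 2414 and 941 on the BP arrays, against 201, 58.8 and 242 on the Rag1 arrays and 579.7, 425 and 555 on the B6 arrays. The BP arrays were all above the Rag1 arrays, with BP replicate 2 far above the others, and the difference was 2.66 ± 0.56, 6.33-fold (adjusted p = 0.0287). Akr1c13, of the same subfamily, which reduces ketones including steroids, read 944, 1871 and 1530 on the BP arrays, against 342, 220.5 and 442 on the Rag1 arrays and 827, 674 and 803 on the B6 arrays. All BP arrays exceeded all B6 arrays, and all B6 arrays exceeded all Rag1 arrays. It differed by 2.06 ± 0.28 between BP and Rag1, 4.17-fold (adjusted p = 0.00915), while -1.21 ± 0.28 between Rag1 and B6 (adjusted p = 0.217) and 0.85 ± 0.28 between BP and B6 (adjusted p = 0.195) did not pass. Akr1c12 read 511, 956 and 744 on the BP arrays, against 342, 196 and 403 on the Rag1 arrays and 574, 536 and 524 on the B6 arrays, 1.21 ± 0.28 between BP and Rag1 (adjusted p = 0.0403).

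Adh1, the alcohol dehydrogenase that oxidises ethanol and retinol, read 2594, 3205 and 2946 on the BP arrays, against 1279, 1195 and 529.8 on the Rag1 arrays and 2519, 1464 and 2078 on the B6 arrays. The BP arrays were above the highest B6 array and the Rag1 arrays below the lowest. Its difference was 1.62 ± 0.30 between BP and Rag1, 3.08-fold (adjusted p = 0.0201), against -1.07 ± 0.30 between Rag1 and B6 (adjusted p = 0.393). The other 2 genes of this group did not pass in any of the 3 comparisons. Akr1c14 was dim, at 29.4, 232 and 45.4 on the BP arrays, against 77.8, 41.0 and 109.7 on the Rag1 arrays and 79.8, 57.9 and 68.4 on the B6 arrays, and high on BP replicate 2 alone. Aldh1b1, a mitochondrial aldehyde dehydrogenase, read 1859, 2427 and 1876 on the BP arrays, against 2009, 1983 and 2426 on the Rag1 arrays and 2378, 2839 and 2565 on the B6 arrays, -0.06 ± 0.15 between BP and Rag1. Akr1c12, Akr1c13, Akr1c14 and Akr1c19 lie in 1 cluster on chromosome 13, in the order Akr1c14, Akr1c18, Akr1c13, Akr1c19, Akr1c12 and Akr1c6 of the RefSeq table for GRCm38.p6.

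Of the hydrolases, 2 of 5 passed as higher in BP than in Rag1 tissue, both carboxylesterases of the Ces2 family, which split ester drugs and lipids. Ces2a read 1487, 2230 and 2302 on the BP arrays, against 912, 702 and 815 on the Rag1 arrays and 1229, 1788 and 1161 on the B6 arrays, 1.27 ± 0.22 between BP and Rag1 (adjusted p = 0.0151) and -0.75 ± 0.22 between Rag1 and B6 (adjusted p = 0.428). Its Rag1 arrays lay below all others. Ces2g read 101, 128 and 129.8 on the BP arrays, against 40.8, 49.8 and 42.6 on the Rag1 arrays and 108, 174 and 129 on the B6 arrays. This gene passed in both comparisons with Rag1, at 1.16 ± 0.23 for BP against Rag1 (adjusted p = 0.0255) and -1.32 ± 0.23 for Rag1 against B6 (adjusted p = 0.0421), and BP and B6 overlapped with -0.16 ± 0.23. The call against B6 held in 2 of 9 fits that each left out 1 array, without BP replicate 1 and without BP replicate 2, and its adjusted p ran up to 0.283. Ces2g was dim on its Rag1 arrays. The call against B6 was also lost with the pseudocount 64 (limma adjusted p = 0.0546) and with no filter (0.0637). It was lost as well with the replicate block (0.0653) and on the values as deposited (0.208). Ces2e, of the same family and gene cluster on chromosome 8, read 4256, 3937 and 4102 on the BP arrays, against 3915, 3514 and 3711 on the Rag1 arrays and 4243, 3919 and 3676 on the B6 arrays, a difference of 0.14 ± 0.11 between BP and Rag1 (adjusted p = 0.532). Ephx2, the soluble epoxide hydrolase, read 1619, 1957 and 1506 on the BP arrays, against 1404, 1247 and 682 on the Rag1 arrays and 1646, 1407 and 1676 on the B6 arrays, 0.66 ± 0.24 between BP and Rag1 (adjusted p = 0.153). Ephx1, the microsomal epoxide hydrolase, ranged over 59.6 to 182 on the BP arrays, 81.6 to 118 on the Rag1 arrays and, on the B6 arrays, 101 to 139 and did not pass.

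The glutathione transferases, which attach glutathione to reactive compounds, split by gene: 1 of 10 passed as higher and 2 as lower in BP than in Rag1 tissue. Gstt3, a theta class enzyme, was lower, at 205, 144 and 173 on the BP arrays, against 479, 441 and 527 on the Rag1 arrays and 356, 341 and 334 on the B6 arrays. All BP arrays were below all B6 arrays, and all B6 arrays below all Rag1 arrays. The difference was -1.40 ± 0.19 between BP and Rag1 (adjusted p = 0.00915) and -0.93 ± 0.19 between BP and B6, just short of passing (adjusted p = 0.0616). Gstt1, its neighbour on chromosome 10, went the other way, at 289, 346 and 327 on the BP arrays, against 167, 124 and 118 on the Rag1 arrays and 314, 164 and 269.6 on the B6 arrays, with 1.16 ± 0.26 between BP and Rag1 (adjusted p = 0.0337). Mgst3, a membrane-bound enzyme of the transferase group, read 1631, 1114 and 1538 on the BP arrays, against 2436, 2490 and 2319 on the Rag1 arrays and 2774, 2702 and 2665 on the B6 arrays. Its BP arrays were the lowest, with -0.77 ± 0.15 against Rag1 (adjusted p = 0.025) and -0.94 ± 0.15 against B6 (adjusted p = 0.0223), while Rag1 differed from B6 by -0.17 ± 0.15. The call against B6 held in 2 of 9 fits that each left out 1 array, those without BP replicate 1 or BP replicate 2, and its adjusted p ran up to 0.12.

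Gsta4, which detoxifies products of lipid peroxidation, read 384, 535 and 603 on the BP arrays, against 221, 149 and 313 on the Rag1 arrays and 419, 230.2 and 421 on the B6 arrays. Its BP arrays were above its Rag1 arrays, but 1.14 ± 0.31 did not pass (adjusted p = 0.0648). Gstm1, a mu class enzyme, read 1072, 826 and 1384 on the BP arrays, against 751, 664 and 702 on the Rag1 arrays and 1279, 1150 and 1031 on the B6 arrays, 0.59 ± 0.20 between BP and Rag1 (adjusted p = 0.119). The other 5 transferases, Gstm3, Gstk1, Gstp1, Mgst1 and Mgst2, differed by 0.64, 0.47, 0.21, 0.33 and 0.17 between BP and Rag1, and 0 passed (limma; 1 had an unadjusted p under 0.05). A dimmer probe set of Gstm3 had the opposite sign, -0.15 ± 0.43. Mgst1, a microsomal enzyme, read 1609, 4539 and 1385 on the BP arrays, against 1964, 1430 and 1817 on the Rag1 arrays and 1736, 2160 and 2072 on the B6 arrays, high on BP replicate 2 alone.

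**Figure D3:**
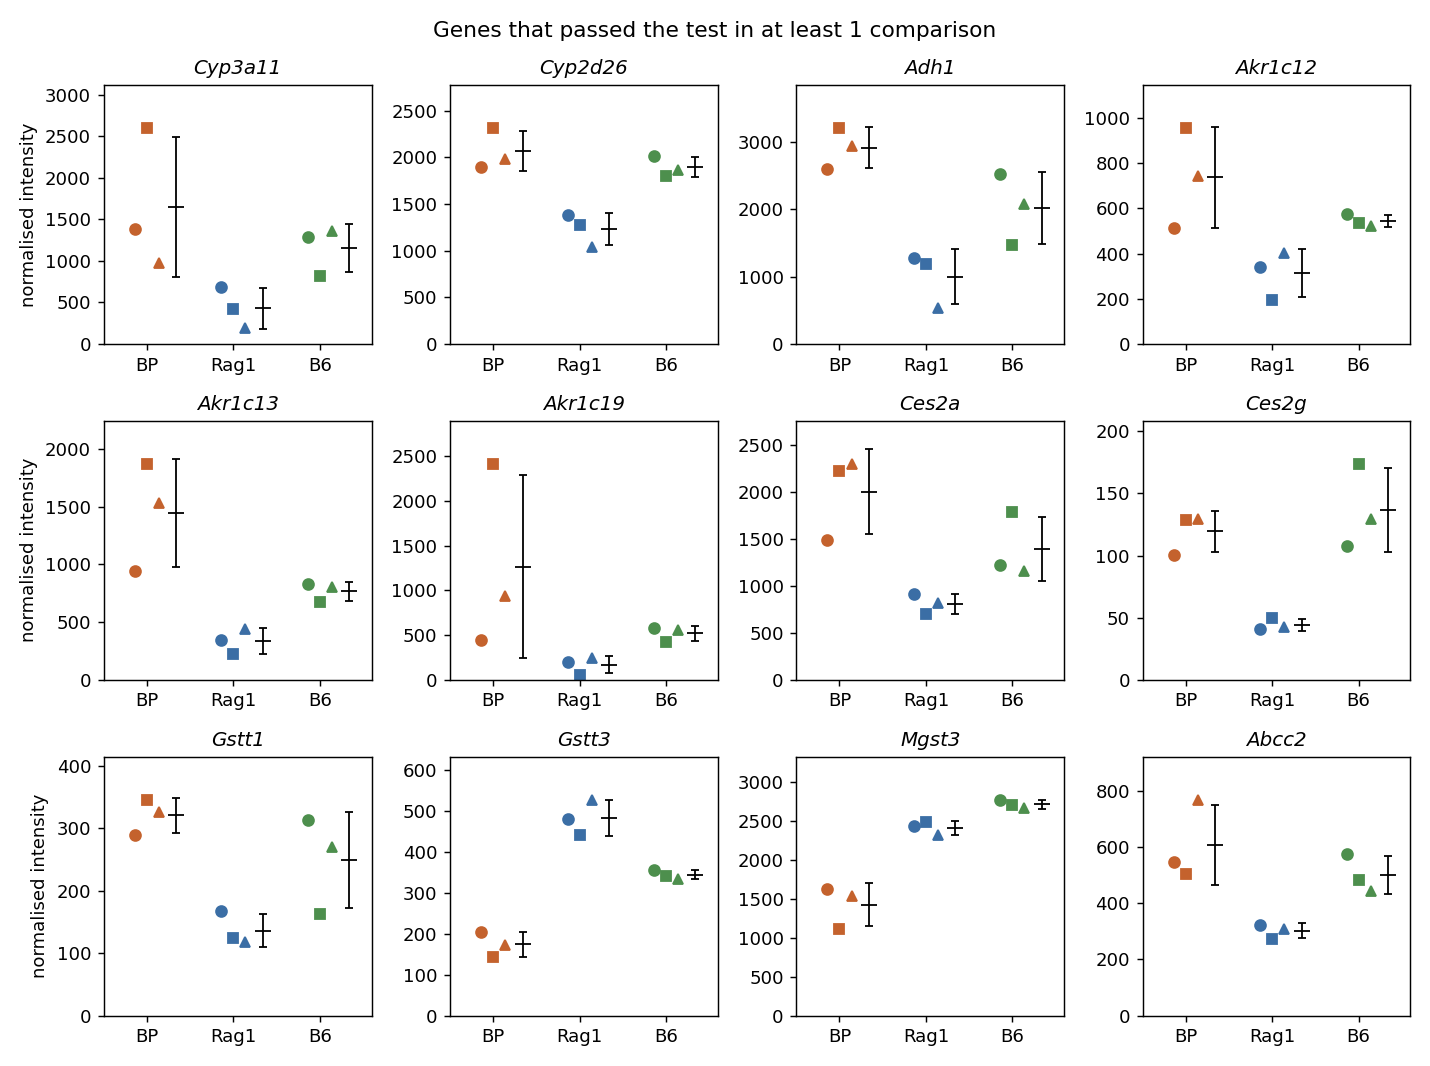
Normalised intensity of the called members on each array, with BP at the left, Rag1 in the middle and B6 at the right; circle, square and triangle are replicates 1, 2 and 3, and the black bar is the mean ± SD. The Rag1 values lie below the BP values for 10 genes and above them for Gstt3 and Mgst3.

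No member among the other conjugating enzymes passed (0 of 4 by limma in BP against Rag1 tissue, with 1 at an unadjusted p under 0.05). Ugt2b5, which attaches glucuronic acid, read 257, 292 and 164 on the BP arrays, against 70.0, 17.3 and 131 on the Rag1 arrays and 145, 90.0 and 110.3 on the B6 arrays. The BP arrays lay above the Rag1 and B6 arrays, and the difference from Rag1 was 1.72 ± 0.45 (adjusted p = 0.0578). Sult1b1, a sulfotransferase, read 608, 2634 and 474 on the BP arrays, against 931, 888 and 744 on the Rag1 arrays and 910.4, 845 and 874 on the B6 arrays. Its direction depended on BP replicate 2. Against Rag1 it passed as lower without that array (-0.65 ± 0.15, limma adjusted p = 0.00873). It passed as higher with the actin ratio as a covariate (1.78 ± 0.31, adjusted p = 0.00332) or with BP replicate 2 as the only BP array (1.61 ± 0.18, adjusted p = 0.000151). Against B6 it turned in the same way (-0.69, 1.19 and 1.56 in these 3 settings). Sult1d1, of the same family, read 296, 1490 and 301 on the BP arrays, against 496, 383 and 389 on the Rag1 arrays and 351, 467 and 435 on the B6 arrays, and like Sult1b1 was highest on BP replicate 2. Tpmt, the enzyme that methylates thiopurine drugs, was dim, at 39.0 to 60.4 on the BP arrays, 20.6 to 47.3 on the Rag1 arrays and, on the B6 arrays, 43.9 to 50.9, with 0.37 ± 0.27 between BP and Rag1 (adjusted p = 0.511), and its 2 other tested probe sets had the opposite sign, -0.36 ± 0.28 and -0.29 ± 0.27.

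Of the 3 efflux pumps, 1 passed. Abcc2, which exports glutathione and glucuronic acid conjugates, read 544, 504 and 767 on the BP arrays, against 324, 272 and 308 on the Rag1 arrays and 576, 482 and 444 on the B6 arrays. Its Rag1 arrays lay below all others, with 0.95 ± 0.21 between BP and Rag1 (adjusted p = 0.0329) and -0.70 ± 0.21 between Rag1 and B6 (adjusted p = 0.449). Abcb1a, the P-glycoprotein of the mouse gut, read 719, 1499 and 1312 on the BP arrays, against 311, 295 and 893 on the Rag1 arrays and 1216, 1089 and 1073 on the B6 arrays. BP and Rag1 overlapped at Rag1 replicate 3, and 1.33 ± 0.38 did not pass (adjusted p = 0.0761). It was called, as higher, without that array. Abcg2, the breast cancer resistance protein, leaned the other way, at 839, 1245 and 526 on the BP arrays, against 1358, 1127 and 2029 on the Rag1 arrays and 747, 1035 and 911 on the B6 arrays, a difference of -0.82 ± 0.30 (adjusted p = 0.152).

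**Figure D4:**
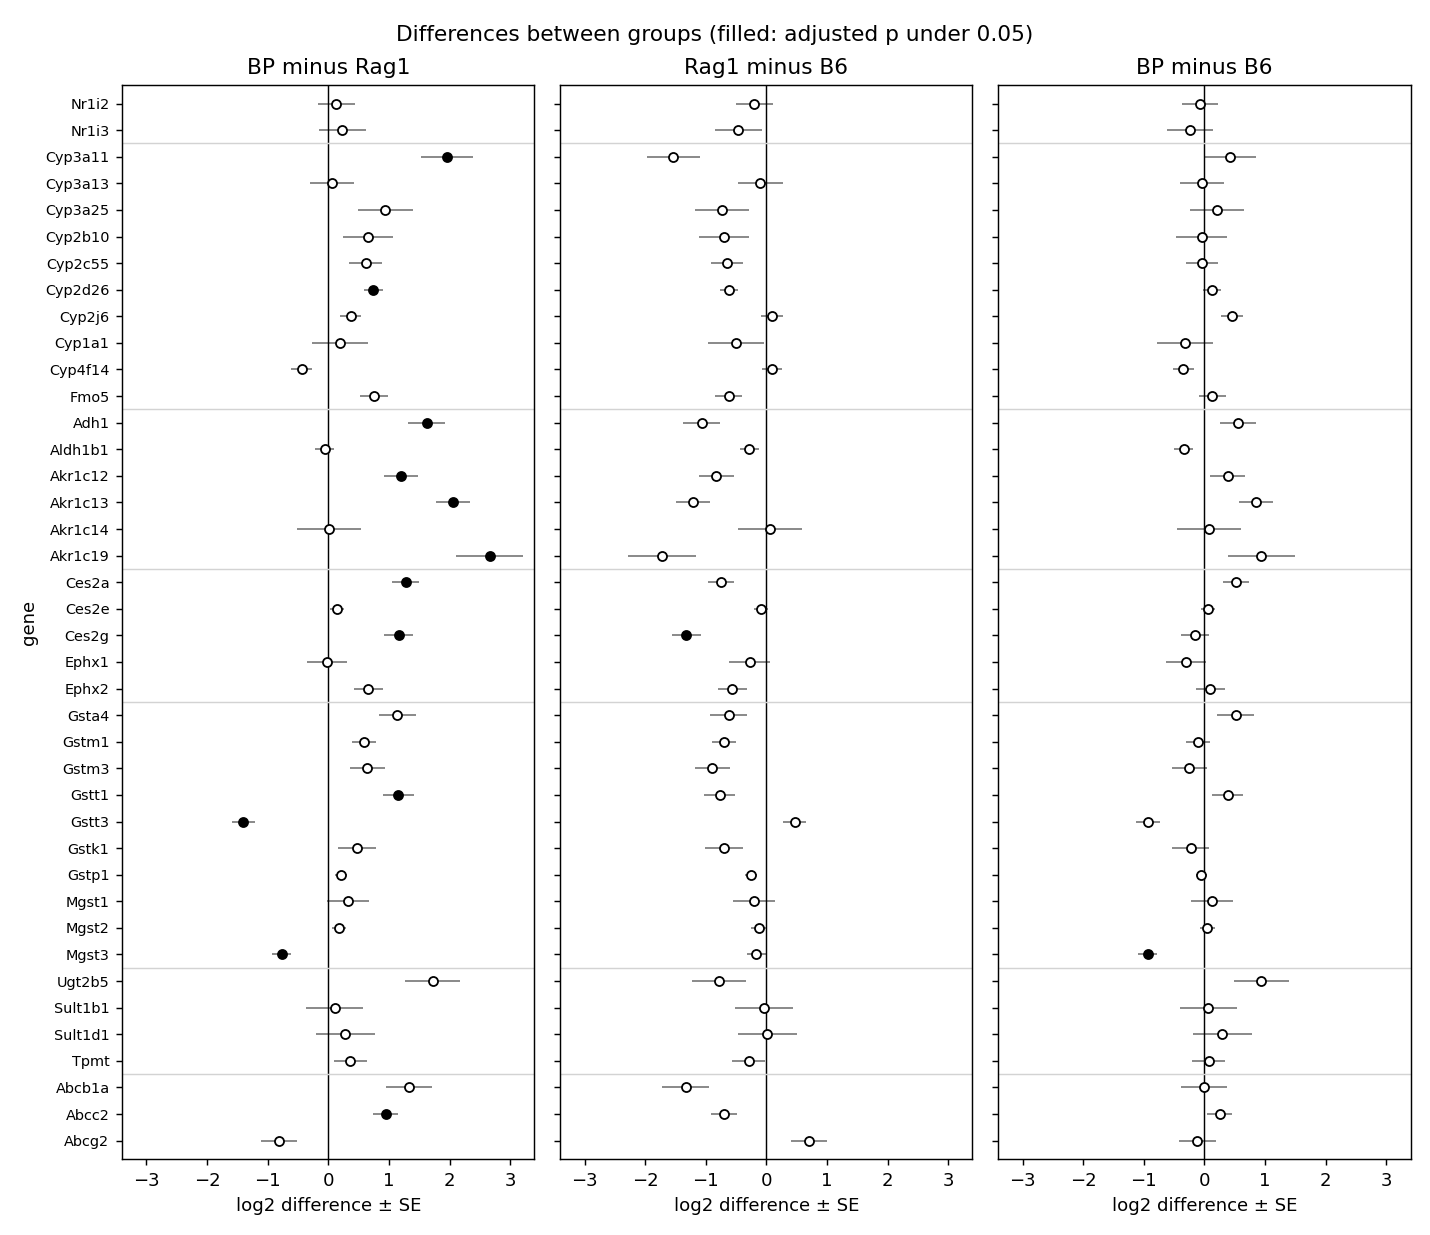
Log2 differences with their standard errors for all 40 members, grouped by role, for BP minus Rag1, Rag1 minus B6 and BP minus B6; filled points passed the limma test. Positive differences number 34 for BP minus Rag1, 6 for Rag1 minus B6 and 22 for BP minus B6.

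Promoters of the members were searched for short motifs on both strands, in RefSeq windows (GRCm38.p6) of 250 bases before to 50 bases after each annotated start, of which the 250 bases before the start are printed here for 4 genes called higher in BP than in Rag1 tissue. For 41 of 43 genes a window was found, 51 windows in all, and Gsta4 and Ephx2 had none. AGGTCA, the core that PXR, CAR and related nuclear receptors bind, occurred in 3 of 10 windows of the members called higher (30.0%), in 11 of 51 member windows (21.6%) and in 16.3% of all 32851 windows. TTATGTA, the core of the D box bound by clock-driven factors such as Dbp, occurred in 1 of 10, in 7 of 51 (13.7%) and in 2.63% of all windows. GCGTG, the xenobiotic response element, occurred in 0 of 10, 27.5% of member windows and 32.4% of all. The antioxidant response element, TGACNNNGC, occurred in 20.0%, 11.8% and 12.4% of the same sets. CACGTG, the E box, occurred in 10.0%, 5.88% and 7.15%, and TTTATG, a motif of the intestinal Cdx factors, in 10.0%, 7.84% and 11.9%. These counts describe letters in these windows only. The 3 windows with AGGTCA and the 1 with TTATGTA follow, 5' to 3' on the gene's strand, with the motif in capitals. Cyp3a11 is at chr5:145879855-145880104 on the minus strand, and Ces2a at chr8:104733753-104734002, Abcc2 at chr19:43782058-43782307 and Ces2g at chr8:104961468-104961717 are on the plus strand.
Cyp3a11: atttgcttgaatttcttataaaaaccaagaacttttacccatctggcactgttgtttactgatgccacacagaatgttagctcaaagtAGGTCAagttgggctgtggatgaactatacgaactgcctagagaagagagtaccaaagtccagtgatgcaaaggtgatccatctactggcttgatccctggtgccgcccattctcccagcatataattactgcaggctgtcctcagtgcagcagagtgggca
Ces2a: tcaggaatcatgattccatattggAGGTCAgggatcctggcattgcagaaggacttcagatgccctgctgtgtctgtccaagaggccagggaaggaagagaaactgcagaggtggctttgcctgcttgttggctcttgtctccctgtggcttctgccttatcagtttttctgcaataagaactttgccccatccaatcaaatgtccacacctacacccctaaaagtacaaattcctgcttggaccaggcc
Abcc2: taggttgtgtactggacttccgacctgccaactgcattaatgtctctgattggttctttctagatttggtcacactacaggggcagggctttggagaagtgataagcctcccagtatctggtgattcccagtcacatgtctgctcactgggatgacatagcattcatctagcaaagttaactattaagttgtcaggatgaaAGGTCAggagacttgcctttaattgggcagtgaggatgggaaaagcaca
Ces2g: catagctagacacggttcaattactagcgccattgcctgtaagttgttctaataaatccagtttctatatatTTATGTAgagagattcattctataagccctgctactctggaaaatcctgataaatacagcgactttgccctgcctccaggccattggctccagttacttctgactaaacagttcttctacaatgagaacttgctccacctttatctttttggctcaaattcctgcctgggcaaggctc
The motif begins 162 bases before the start in Cyp3a11, 226 in Ces2a, 49 in Abcc2 and 178 in Ces2g. In Ces2g the motif overlaps TTTATG.

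From a list of 109 further regulators, enzymes and transporters of the same pathway, 82 had a tested probe set. In BP against Rag1 tissue, 5 of 82 (6.1%, where the share of all genes was 1.1%) passed as higher. None of the 82 passed as lower (2.17% of genes). The median difference over the 82 was 0.15. Dbp, the clock-controlled factor known in mouse liver for driving detoxification genes, read 247, 1117 and 666 on the BP arrays, against 52.1, 97.6 and 54.6 on the Rag1 arrays and 869, 545 and 492 on the B6 arrays. Its Rag1 arrays lay below all others, with 2.85 ± 0.45 between BP and Rag1 (adjusted p = 0.0123) and -2.95 ± 0.45 between Rag1 and B6 (adjusted p = 0.017). Dbp was the only 1 of 9 tested regulators on this list to pass in either comparison. Between BP and Rag1, 5 of the 9 had a negative difference, with a median of -0.06. The part of sampling time in the differences of Dbp was not tested. Ces2b, in the Ces2 cluster beside Ces2a, differed by 0.94 ± 0.23 between BP and Rag1 (adjusted p = 0.0465), and Slc47a1, an exporter of organic cations, read 2.14-fold higher (adjusted p = 0.0264). Pon2, a lactonase, differed by 0.84 ± 0.19 (adjusted p = 0.0378) and Aldh9a1, an aldehyde dehydrogenase, by 0.50 ± 0.12 (adjusted p = 0.0492). In Rag1 against B6 tissue Dbp alone of the 82 passed (1.22%, where 0.391% of genes were called either way). In BP against B6 tissue 0 passed by limma, with 10 at an unadjusted p under 0.05 (13.9% of genes).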

How the data were processed

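Biotin-labelled cRNA of 9 samples, made from 20 µg of total RNA per the labels' protocols, was measured on Affymetrix arrays. The values the authors deposited are linear intensities per probe set, from 1 to 21694. The software and scaling behind them are not given in the sources used here. Groups come from the sample titles, and every column was matched to a sample by name.

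Intensities were turned into log2(value + 16) and quantile-normalised. The 64 control probe sets and the dimmest 40% (mean over the 9 arrays) were excluded, a limit of 5.30 on the log2 scale or about 23.5 in intensity, which kept 27022 probe sets. The test was limma, version 3.58.1 under R version 4.3.3, with data.table version 1.17.8: every array entered a common model of group means with 6 residual degrees of freedom, an intensity trend, two-sided, Benjamini-Hochberg over all tested probe sets, threshold 0.05. Because of the added 16, fold changes, given on the log2(value + 16) scale, are too small for dim genes. Normalised intensity is the normalised value turned back to the linear scale less 16. A gene is represented by its brightest tested probe set with a single symbol (13570 genes). The fit was tested on simulated data.

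The members and lists were chosen with earlier results of these data known, so medians and counts over members carry no test. Every member is named, with values per array for the called ones and up to 2 further members per role with the smallest p. Cyp3a13, Cyp2b10, Mgst1, Sult1b1 and Sult1d1, shown in full besides, were picked once their values had been seen. Array number limits the precision. Alternatives covered scaling, pseudocount, filter, groups fitted, a replicate block, array weights, the actin ratio, averaging a gene's probe sets and omitting arrays.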

Additional observations from a re-analysis of the deposited data

How the results depend on the processing

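With 3 arrays a group, counts of called members moved strongly with the settings, while the medians against Rag1 tissue kept their sign. For BP against Rag1 tissue, 12 members were called, and the count was 6 on the values as deposited, 3 with only the 2 groups in the fit and 20 with the actin ratio as a covariate. It was 24 with BP replicate 2 as the only BP array, which is then assumed to vary like the other groups. Leaving out 1 array at a time gave 0 to 20 members (the 0 by limma, with 22 and 23 at an unadjusted p under 0.05) and a median of 0.32 to 0.75. The median was 1.01 with the actin ratio and 1.05 with BP replicate 2 alone, settings that both rest largely on BP replicate 2. For Rag1 against B6 tissue, 1 member was called, and the count was 0 on the values as deposited, with the pseudocount 64, with no filter and with the replicate block (limma; 15, 20, 20 and 20 at an unadjusted p under 0.05). It was 6 with only the 2 groups, 15 with array weights, 6 with the actin ratio, 6 with BP replicate 2 alone and 0 to 6 without 1 array (the 0 by limma, with 12 to 20 at an unadjusted p under 0.05), with a median of -0.66 to -0.39. For BP against B6 tissue, 1 member was called, and the count was 2 with median centring, the lowest 60% left out, array weights or the mean of all probe sets of a gene. It was 0 with only the 2 groups (limma; 6 at an unadjusted p under 0.05), 9 with the actin ratio, 12 with BP replicate 2 alone and 0 to 6 without 1 array (the 0 by limma, with 3 to 8 at an unadjusted p under 0.05). The median there was -0.18 with median centring, 0.27 with the actin ratio, 0.37 with BP replicate 2 alone and -0.03 to 0.15 without 1 array.

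Called probe sets numbered 1027 for BP against Rag1, 89 for Rag1 against B6 and 171 for BP against B6. With only the 2 groups they were 183, 338 and 51, with array weights 4023, 1050 and 856, with the actin ratio 4191, 294 and 3488, and with BP replicate 2 alone 5978, 338 and 5700. The mean of all probe sets of a gene gave 432 and 108 genes for BP against Rag1 and BP against B6. For BP against B6, median centring gave 499 and the values as deposited 108. Without 1 array the ranges were 18 to 5303, 37 to 354 and 56 to 3046. For BP against Rag1, 298 probe sets were higher and 729 lower, and with median centring 158 were higher and 1054 lower, with the median of all genes at -0.11. The cause of these shifts was not tested.

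The replicate block gave 11 members for BP against Rag1, 0 for Rag1 against B6 and 1 for BP against B6. Deviations of arrays with the same number correlated at -0.19 to 0.23, and those with different numbers at -0.172 to 0.175. Whether arrays with the same number share a litter, day or batch cannot be told from these values.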

Other observations

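The array also holds probe sets annotated to several of these genes at once, which were left out of the counts. The probe set of Akr1c12 and Akr1c13 together read 1016, 2523 and 1453 on the BP arrays, against 817, 454 and 937 on the Rag1 arrays and 1167, 1281 and 1324 on the B6 arrays, a log2 difference of 1.12 ± 0.32 between BP and Rag1 (limma adjusted p = 0.0753). The probe set shared by Gsta1, Gsta2 and Gm3776 read 328, 2445 and 546 on the BP arrays, against 431, 266 and 311 on the Rag1 arrays and 938, 919 and 820.1 on the B6 arrays. Its Rag1 arrays lay below its B6 arrays, with -1.39 ± 0.54 (adjusted p = 0.744), and the BP arrays were set apart by replicate 2.

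Gata5, a transcription factor of the intestine on the ileal marker list, passed as lower in BP than in Rag1 and B6 (2.17% and 0.545% of genes). It was the only one of 9 tested ileal markers to pass in either comparison, and 5 of the 9 had a positive difference in each, with a median of 0.02 against Rag1 and 0.04 against B6. Against Rag1, 5 of the 9 had an unadjusted limma p under 0.05 (19.1% of genes). All BP arrays lay below all Rag1 arrays for 4 and above them for 0 (13.1% and 10% of genes). Against B6, 3 had an unadjusted limma p under 0.05 (13.9% of genes), with 1 marker below all B6 arrays and 2 above (11.8% and 7.34% of genes). Gata5 read 213, 251 and 225 on the BP arrays, against 466, 694 and 418 on the Rag1 arrays and 614.5, 635 and 526 on the B6 arrays, a log2 difference of -1.11 ± 0.22 from Rag1 (limma adjusted p = 0.0228) and -1.31 ± 0.22 from B6 (adjusted p = 0.0223).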
